A study of Mus musculus with 8 samples.

Results

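The Notch genes described here are 10 genes of 1 signalling pathway, out of 37979 genes listed for sorted mural cells of mouse skeletal muscle. They are 4 receptors (Notch1, Notch2, Notch3 and Notch4), 3 ligands (Jag1, Dll1 and Dll4) and 3 target genes (Hes1, Hey1 and Heyl). They were found by their gene symbols, each of which matched 1 row, and all 10 had values above 0 in every library. Bulk RNAseq was performed on 4 pericyte libraries (PDGFRβ+tdTomato- cells) and 4 SMC libraries (PDGFRβ+tdTomato+ cells) sorted from the hindlimb muscles of mice of the genotype Ai14+/-;SM22α-Cre+, 3 to 4 months old and of both sexes. All animals carried both alleles and no treatment was given, so the only stated difference between the groups is the sort for tdTomato. This reporter is switched on for good by Cre under the SM22α promoter and so marks any cell that has ever used that promoter. The study's methods do not say which animals or sexes went into each library. By the labels and the study's methods, cells that stained for CD31 or CD45 or that were high for DAPI were excluded, although a supplementary legend of the study writes the gate as CD31+. Each library held about 60000 cells combined from several sorts. The labels give all 8 libraries the same batch, which does not tell the combined sorts apart, and the replicate numbers 1 to 4 are not stated to link a pericyte library with an SMC library.

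Notch signalling passes between touching cells. A ligand of the Jagged or Delta-like family on a cell binds a Notch receptor on its neighbour, proteases cut the receptor, and the freed intracellular domain enters the nucleus, where it joins the DNA-binding protein RBPJ and switches on repressors of the Hes and Hey families. In blood vessels, Notch3 is known as the receptor of mural cells, Jag1 as a ligand that endothelial and mural cells use to instruct mural cells, and Dll4 and Notch4 as genes of endothelial cells. Notch1 and Notch2 are used by many cell types, lymphocytes among them.

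Levels are given in FPKM, the fragments counted for a transcript after division by its length and by the sequencing depth of the library, so that genes can be compared. Summed over genes, 7 libraries had 656405 to 782014 FPKM and pericyte replicate 2 had 1190435, which stands apart, so the members' differences are also given without it or as the range over all libraries left out in turn. The steps between low FPKM values gave rough relative depths of 0.868 to 1.06 (1 being the mean), and the number of reads behind a value is not known. Markers of several cell types parted the groups. The 10 lymphocyte markers summed to 2260 to 4337 FPKM in pericyte libraries and 28.6 to 63.0 FPKM in SMC libraries, and 10 of 10 were higher in pericytes (limma q below 0.05, explained with the Notch counts). The 15 endothelial markers summed to 142 to 256 FPKM in pericyte libraries and 654 to 1817 FPKM in SMC libraries, with 12 of 15 higher in SMCs, and the 9 fibroblast markers summed to 621 to 994 and 5555 to 6782 FPKM, with 9 of 9 higher in SMCs. Of 10 mural cell markers 3 were higher in SMCs (74.0 to 155 and 214 to 568 FPKM in sum), of 8 smooth muscle markers 0 passed by limma (3 at an unadjusted p below 0.05; 607 to 1907 and 1792 to 5824 FPKM), of 6 satellite cell markers 1 was higher in SMCs (28.8 to 210 and 383 to 712 FPKM) and of 7 macrophage markers 4 were higher in SMCs (850 to 1788 and 1212 to 1866 FPKM). No list had a marker at 0 in all libraries. Pdgfrb, the gene of the receptor for which both groups were sorted, had 3.21 to 17.6 FPKM in pericytes and 15.6 to 91.5 FPKM in SMCs (limma q = 0.0973). The part that these cell types have in the Notch values was not tested, and in bulk libraries fewer cells of a type and less RNA per cell cannot be told apart.

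To compare the Notch genes in pericytes and SMCs, log2(FPKM + 1) was fitted by limma, with q values adjusted over 27414 genes. Jag1, Hes1 and Heyl were higher in SMCs (q below 0.05), none of the 4 receptors was called, and no member was called higher in pericytes. The 3 called members of 10 stand beside 11.2% of all genes tested that were called higher in SMCs, and beside 19.5% of the 13612 genes that averaged 1 FPKM or more, to which 9 of the 10 members belong. At an unadjusted p below 0.05, limma gave 5 members higher in SMCs and 0 higher in pericytes, beside 16.2% and 15.6% of all genes tested. Among all genes tested, 10.6% were called higher in pericytes (19.7% of those averaging 1 FPKM or more), and 21.8% in either direction. With a log2 fold change above 2 as a second condition, the threshold that the study used for enriched genes, 0 members passed against 5.89% of all genes, and that count was 0 in every alternative fit. For 4 members (Jag1, Hes1, Hey1 and Heyl) every SMC library lay above every pericyte library, which was so for 12.5% of all genes tested and 20.8% of those averaging 1 FPKM or more. The median log2 difference, SMCs minus pericytes, was 1.02 over the 10 members and -0.02 over all genes tested. A positive difference was found for 9 of 10 members, beside 12255 of the 27414 genes tested and 6563 of the 13612 that averaged 1 FPKM or more. The same median was 0.12 for the receptors, 1.08 for the ligands and 1.24 for the targets.

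**Figure D1:**
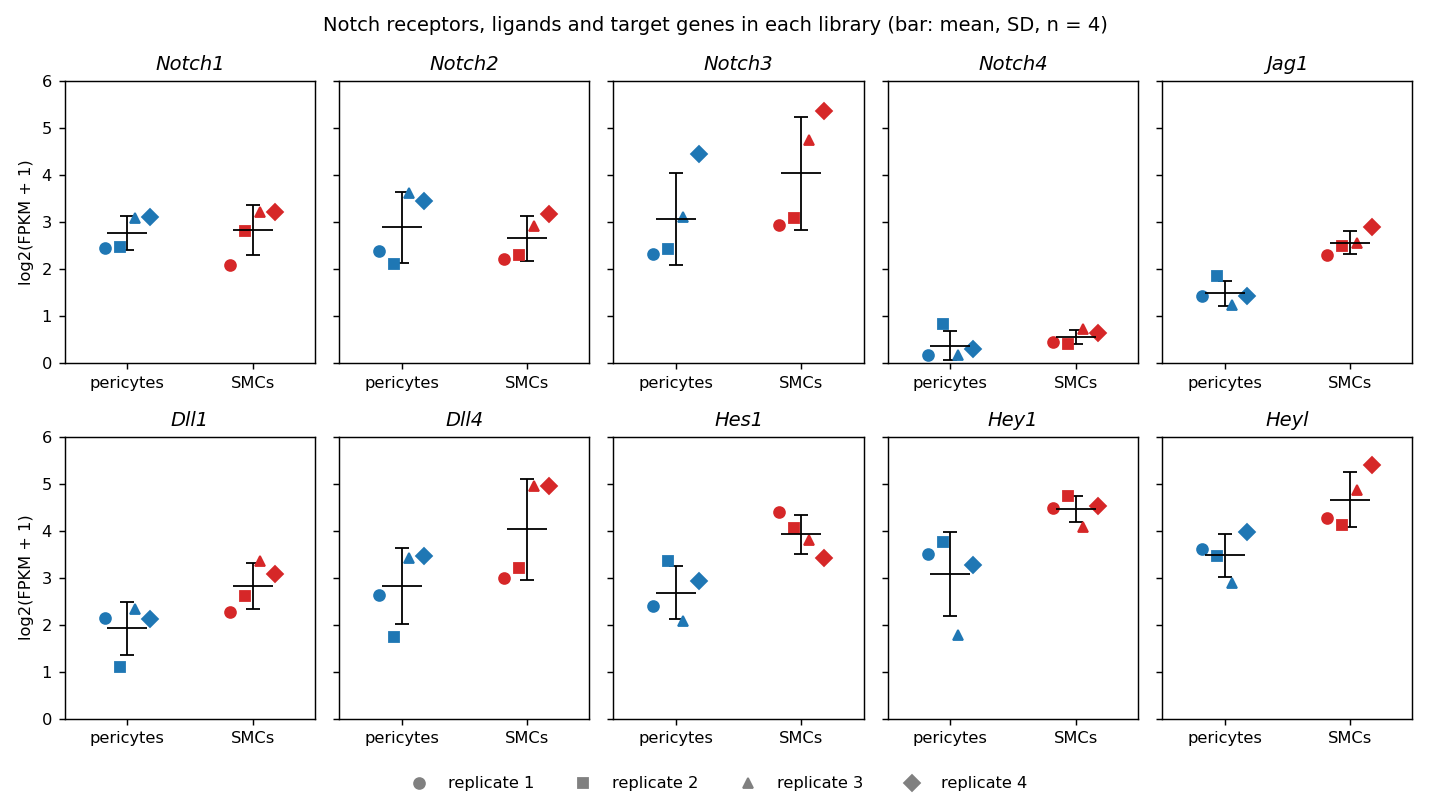
Expression of the 10 Notch genes as log2(FPKM + 1) in each pericyte library (blue) and SMC library (red), with the replicate number given by the symbol and the mean and SD of 4 libraries as bars. The groups do not overlap for Jag1, Hes1, Hey1 and Heyl, and they overlap for the 4 receptors, Dll1 and Dll4.

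**Figure D2:**
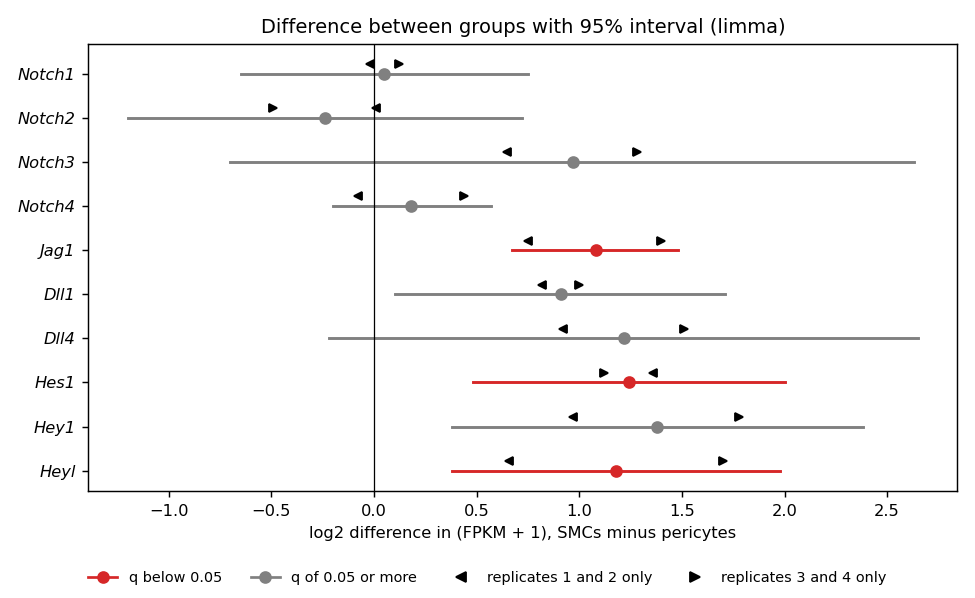
Difference between SMCs and pericytes in log2(FPKM + 1) for each member, with its 95% interval from limma (positive values are higher in SMCs), in red where q was below 0.05. The black arrowheads give the same difference within replicates 1 and 2 and within replicates 3 and 4, and for Jag1, the other ligands and the 3 targets they all lie above 0.

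The receptors came first. Notch3, the receptor of mural cells, is encoded on the minus strand of chromosome 17, 32257765 to 32303825 in NCBI Build 37, the build of all gene positions here. Its level in replicates 1 to 4 was 4.01, 4.35, 7.57 and 20.8 FPKM in pericytes and 6.68, 7.54, 26.0 and 40.0 FPKM in SMCs. Replicate 4 was the highest of each group, the SMC values spanned 6.68 to 40.0 FPKM, and the groups overlapped. The log2 difference was 0.97 (95% interval -0.70 to 2.63, limma q = 0.438), an interval that holds both no difference and a difference above 2. Notch3 passed with the replicate number as a block in the fit (limma q = 0.0403), although no label states that the numbers link libraries. It did not pass with replicates 1 and 2 set against 3 and 4 in the fit (limma q = 0.0736). Leaving out a library moved the difference from 0.53 without SMC replicate 4 to 1.42 without pericyte replicate 4, and it was 0.75 without pericyte replicate 2 (limma q from 0.212 to 0.706 over the 8 fits).

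Notch1, on chromosome 2 from 26313423 to 26372183 on the minus strand, had 4.46, 4.52, 7.48 and 7.56 FPKM in pericytes and 3.22, 5.97, 8.26 and 8.23 FPKM in SMCs. The groups covered nearly the same range, with a log2 difference of 0.05 (95% interval -0.65 to 0.75, limma q = 0.934). Notch2, on chromosome 3 from 97817461 to 97954290 on the plus strand, had 4.21, 3.29, 11.2 and 9.95 FPKM in pericytes and 3.62, 3.92, 6.54 and 8.02 FPKM in SMCs. Its pericyte replicates 3 and 4 were the highest of the 8 libraries, and its log2 difference was -0.24 (95% interval -1.20 to 0.72, limma q = 0.755). Neither direction held whichever library was omitted, since the log2 difference of Notch1 went from -0.08 to 0.30 and that of Notch2 from -0.50 to 0.00. Notch4, on chromosome 17 from 34701213 to 34725448 on the plus strand, stayed under 1 FPKM in all libraries. It had 0.130, 0.772, 0.123 and 0.229 FPKM in pericytes and 0.362, 0.321, 0.642 and 0.556 FPKM in SMCs, so that pericyte replicate 2 had the highest value of all and the other pericyte libraries the lowest. Its log2 difference was 0.18 (95% interval -0.20 to 0.57, limma q = 0.545), or 0.34 (limma q = 0.0537) without pericyte replicate 2. At these levels the log2(FPKM + 1) scale understates a fold change.

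The make-up of the receptors was described as the share of each in the summed FPKM of Notch1 to Notch4. The sum itself was 12.8, 12.9, 26.4 and 38.5 FPKM in pericyte replicates 1 to 4 and 13.9, 17.7, 41.4 and 56.8 FPKM in SMC replicates 1 to 4. Notch3 held 48.1%, 42.5%, 62.7% and 70.4% of it in SMCs and 31.3%, 33.6%, 28.7% and 53.9% in pericytes. It was the highest receptor in 4 of 4 SMC libraries and in 1 of 4 pericyte libraries, where Notch1 led in 2 and Notch2 in 1. On average Notch3 made up 55.9% of the sum in SMCs (SD 12.9, n = 4) but 36.9% of it in pericytes (SD 11.5, n = 4), and the groups overlapped through pericyte replicate 4. Notch1 held 22.8% in SMCs (SD 8.05, n = 4), lower than the 29.4% it held in pericytes (SD 7.23, n = 4). Notch2 held 19.5% ± 5.56 (SD, n = 4) and 31.7% ± 8.0 (SD, n = 4), in the same order. Notch4 was the lowest receptor in all 8 libraries, at 0.979% to 2.61% in SMCs and 0.465% to 5.97% in pericytes. These shares are a description, and no test was made of them.

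**Figure D3:**
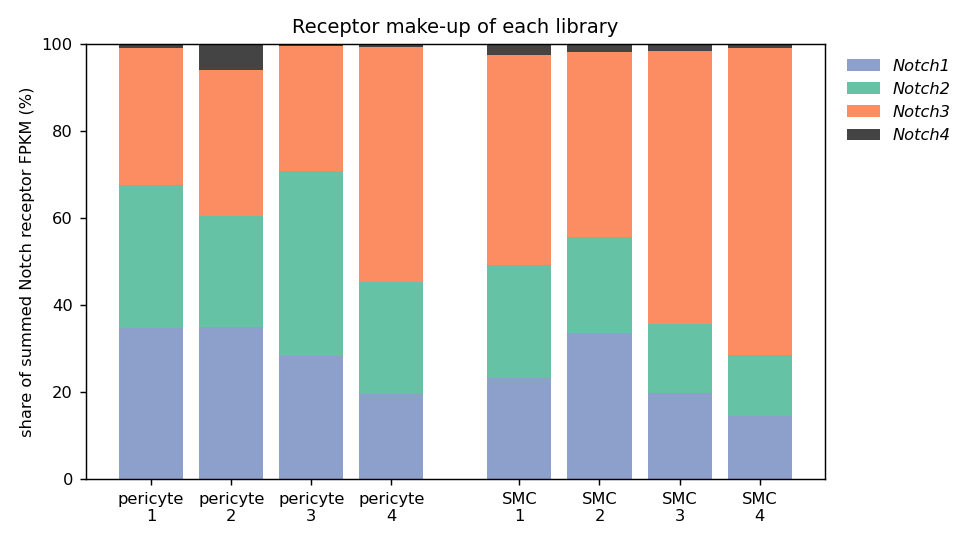
Share of each Notch receptor in the summed FPKM of the 4 receptors, in percent, for each pericyte and SMC library. Notch3 takes the largest share in all 4 SMC libraries (42.5% to 70.4%) and in pericyte replicate 4 (53.9%).

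Notch3 and Dll4 were the members that varied most over the 8 libraries (SD of log2 values 1.14 and 1.09), and the genes with the most similar profile were sought for them. Likeness was the root mean square, over the 8 libraries, of the difference between 2 profiles after each gene's mean was subtracted, among 2899 other genes that averaged 1 FPKM or more and had an SD above 1. The genes nearest to Notch3 included Cacna1h, a T-type calcium channel subunit (0.147 log2 units), and Slc2a4, the insulin-responsive glucose transporter (0.190). Slc2a4 had 3.19, 5.05, 7.10 and 17.1 FPKM in pericytes and 6.75, 6.13, 25.2 and 48.3 FPKM in SMCs, so it was low in replicates 1 and 2 and high in replicate 4 of each group, as Notch3 was. Nearest to Dll4 were Ehd4, an endocytic trafficking protein (0.185), Gcc1, a Golgi protein (0.196), and Gaa, the lysosomal alpha-glucosidase (0.207). When each gene was also divided by its SD, 2 of the 6 genes nearest to either member were again among the nearest, and with a pseudocount of 0.1 there were 4 of 6.

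**Figure D4:**
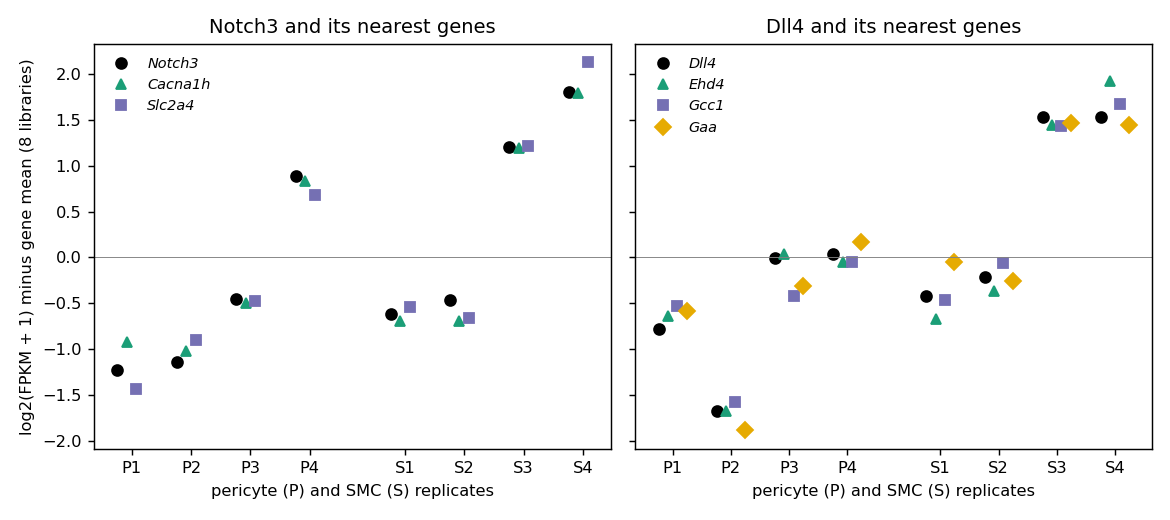
Profiles of Notch3 and Dll4 (black) and of genes nearest to each over the 4 pericyte and 4 SMC libraries, as log2(FPKM + 1) minus the gene's mean over the 8 libraries. Each set of genes is highest in SMC replicates 3 and 4, and the distances to the black profile lie between 0.147 and 0.207 log2 units.

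The starts of these 2 genes and of Jag1, the member with the smallest q value, are shown because Notch3 and Dll4 varied most over the libraries and Jag1 kept its call in every alternative fit. The sequences come from the RefSeq promoter table (GRCm38.p6), in which 7 of the 10 members have an entry (not Hes1, Hey1 and Heyl), and were placed on NCBI Build 37 by an exact match. They run up to 250 bases before the RefSeq start, 5′ to 3′ on the strand of the gene, and that of Jag1 stops where the annotation places its first exon. Capitals mark the RBPJ core motif TGGGAA and the GC box GGGCGG, on either strand (TTCCCA and CCGCCC). Notch3 is at chr17:32303836-32304085 (minus strand), Dll4 at chr2:119151270-119151519 (plus strand) and Jag1 at chr2:136942381-136942506 (minus strand).
Notch3: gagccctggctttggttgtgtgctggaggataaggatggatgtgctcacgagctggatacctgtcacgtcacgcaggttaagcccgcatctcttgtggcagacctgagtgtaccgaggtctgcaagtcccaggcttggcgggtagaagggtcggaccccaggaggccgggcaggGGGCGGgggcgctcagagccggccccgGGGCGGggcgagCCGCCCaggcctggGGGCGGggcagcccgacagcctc
Dll4: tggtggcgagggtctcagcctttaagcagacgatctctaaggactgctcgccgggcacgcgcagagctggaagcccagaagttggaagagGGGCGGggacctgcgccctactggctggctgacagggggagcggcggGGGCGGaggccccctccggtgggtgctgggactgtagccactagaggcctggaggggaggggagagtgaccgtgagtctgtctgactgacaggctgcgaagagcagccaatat
Jag1: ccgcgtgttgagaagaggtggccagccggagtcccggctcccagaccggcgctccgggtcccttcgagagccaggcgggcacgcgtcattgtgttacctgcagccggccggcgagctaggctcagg
The stretch before Notch3 holds 4 GC boxes, that before Dll4 holds 2, and that before Jag1 holds neither motif. Of 32851 promoters of 250 bases in the table, 32.7% hold a GC box and 21.6% hold the RBPJ core letters, and 0 of the 8 promoters listed for the 4 receptors and 3 ligands hold the latter. A match is a description of letters, and the lack of it says only that the letters are not in this window.

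Of the 3 ligands, Jag1 was called higher in SMCs and Dll1 and Dll4 were not called. Jag1 lies on chromosome 2 from 136907192 to 136942380 on the minus strand. It had 1.70, 2.63, 1.36 and 1.67 FPKM in pericytes and 3.90, 4.66, 4.91 and 6.40 FPKM in SMCs, and the lowest SMC library was above the highest pericyte library, replicate 2. The mean was 1.84 FPKM (SD 0.548, n = 4) in the pericyte libraries and 4.97 FPKM (SD 1.05, n = 4) in the SMC libraries, 2.70 times as high. The log2 difference was 1.08 (standard error 0.17, limma q = 0.00399). Leaving out any 1 library gave differences of 0.97 to 1.20, with q below 0.05 in 8 of 8 such fits and in 10 of 10 other alternatives (limma q from 8.58e-04 to 0.0192).

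Dll4, on chromosome 2 from 119151520 to 119161698 on the plus strand, had 5.22, 2.34, 9.67 and 9.96 FPKM in pericytes and 7.01, 8.25, 29.8 and 29.9 FPKM in SMCs. Replicates 3 and 4 were the high libraries of each group, and the groups overlapped because pericyte replicates 3 and 4 exceeded SMC replicates 1 and 2. The mean of 18.75 FPKM (SD 12.9, n = 4) in SMCs was 2.76 times that of 6.80 FPKM (SD 3.68, n = 4) in pericytes, and the log2 difference was 1.22 (95% interval -0.22 to 2.65, limma q = 0.234). Without pericyte replicate 2, the lowest library, the difference was 0.86 (limma q = 0.410). Dll4 passed with the replicate number as a block in the fit (limma q = 0.0342), although no label states that the numbers link libraries. It also passed with replicates 1 and 2 set against 3 and 4 in the fit (limma q = 0.00820), where 14.3% of all genes were called higher in SMCs. These sets were seen in the same data and are given by no label, so this pass is not independent support. Dll4 was the highest ligand in 4 of 4 SMC libraries and 3 of 4 pericyte libraries. In pericyte replicate 2 Jag1 was the highest, at 2.63 FPKM against 2.34 FPKM for Dll4.

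Dll1, on chromosome 17 from 15504318 to 15513836 on the minus strand, had 3.43, 1.12, 4.04 and 3.32 FPKM in pericytes and 3.81, 5.08, 9.29 and 7.46 FPKM in SMCs. Pericyte replicate 3 exceeded SMC replicate 1 and pericyte replicate 2 was the lowest. The log2 difference was 0.91 (95% interval 0.10 to 1.71, limma q = 0.112), and 0.63 (limma q = 0.158) without pericyte replicate 2. The endothelial marker sum stood at 654 to 1817 FPKM in SMCs against 142 to 256 FPKM in pericytes beside these ligand values. Pecam1, which encodes CD31, had 25.0 to 59.7 FPKM in pericytes and 102 to 301 FPKM in SMCs. The fibroblast, mural and satellite cell marker sums were higher in SMCs too. The part of any of these cell types in the ligand values was not tested.

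Of the 3 targets, Hes1 and Heyl were called higher in SMCs and Hey1 was not called, and every SMC library lay above every pericyte library for all 3 genes, as was so for 12.5% of all genes tested and 20.8% of those averaging 1 FPKM or more. All encode basic helix-loop-helix repressors. Hes1, on chromosome 16 from 30064470 to 30067882 on the plus strand, had 4.24, 9.20, 3.19 and 6.57 FPKM in pericytes and 20, 15.7, 13.1 and 9.70 FPKM in SMCs. The gap between the groups was narrow, between 9.20 FPKM in pericyte replicate 2 and 9.70 FPKM in SMC replicate 4. The mean was 5.80 FPKM (SD 2.67, n = 4) in the pericyte libraries and 14.6 FPKM (SD 4.37, n = 4) in the SMC libraries, 2.52 times as high, with a log2 difference of 1.24 (standard error 0.32, limma q = 0.0314). The call was kept without SMC replicate 4 or pericyte replicate 2, and was lost without any of SMC replicates 1, 2 and 3 or pericyte replicates 1, 3 and 4 (limma q from 0.0524 to 0.0796), while the difference stayed between 1.04 and 1.46. The call was also lost when genes at 0 everywhere were kept in the fit and its adjustment (limma q = 0.0691). The same held with the replicate number as a block (limma q = 0.0619), and in both fits the difference was still 1.24.

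Heyl, on chromosome 4 from 122910799 to 122927118 on the plus strand, had 11.1, 9.93, 6.38 and 14.6 FPKM in pericytes and 18.2, 16.3, 28.0 and 41.1 FPKM in SMCs. SMC replicate 4 was the highest and pericyte replicate 3 the lowest. The mean was 10.5 FPKM (SD 3.40, n = 4) in the pericyte libraries and 25.9 FPKM (SD 11.4, n = 4) in the SMC libraries, and the log2 difference was 1.18 (standard error 0.34, limma q = 0.0461). The call was kept without SMC replicate 2 or pericyte replicate 4 and lost without each of the other 6 libraries, which are SMC replicates 1, 3 and 4 and pericyte replicates 1, 2 and 3 (limma q from 0.0564 to 0.112), with a difference between 0.94 and 1.37. Keeping genes at 0 everywhere in the fit and its adjustment also lost the call (limma q = 0.0963), with the difference still at 1.18.

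Hey1, on chromosome 3 from 8663362 to 8667039 on the minus strand, had 10.4, 12.6, 2.43 and 8.61 FPKM in pericytes and 21.5, 25.5, 16.0 and 21.9 FPKM in SMCs. Replicate 3 was the lowest of each group, and the SMC libraries were close together. Its log2 difference was 1.38 (95% interval 0.38 to 2.38) and missed the threshold (limma q = 0.0596). Leaving out a library gave 0.94 (without pericyte replicate 3) to 1.6 (without pericyte replicate 2). It passed without pericyte replicate 2 (limma q = 0.0399) or pericyte replicate 3 (limma q = 0.0179) and in 5 of 10 other alternatives (limma q from 0.0185 to 0.121 over all 10).

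Ordered by mean level in SMCs, Heyl (25.9 FPKM), Hey1 (21.2), Notch3 (20.05), Dll4 (18.75) and Hes1 (14.6) came before Notch1 (6.42), Dll1 (6.41), Notch2 (5.53), Jag1 (4.97) and Notch4 (0.470). Between neighbours in this order the ranges of the 4 libraries were apart only between Hes1 and Notch1 and between Jag1 and Notch4. In pericytes the order was Heyl (10.5 FPKM), Notch3 (9.17), Hey1 (8.50), Notch2 (7.17), Dll4 (6.80), Notch1 (6.01), Hes1 (5.80), Dll1 (2.98), Jag1 (1.84) and Notch4 (0.313). There the ranges of neighbours were apart only between Jag1 and Notch4. In SMCs every value of Hes1 was above every value of Notch1, while in pericytes the ranges of the 2 genes overlapped (3.19 to 9.20 and 4.46 to 7.56 FPKM). Notch4 was the lowest member in both groups.

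Replicates 1 and 2 differed from replicates 3 and 4 in both groups, so the members were also compared within replicates 1 and 2 and within replicates 3 and 4, where 2 libraries stand against 2 and no test was made. Notch3 in replicates 3 and 4 was 4.64 times its level in replicates 1 and 2 in SMCs and 3.39 times in pericytes (1.81 times without pericyte replicate 4). Dll4 gave 3.92 and 2.60 times (4.2 without pericyte replicate 1 and 1.88 without pericyte replicate 2), and Notch2 gave 1.93 and 2.82 times, in the same order. Hey1 and Hes1 were lower in replicates 3 and 4. For Hey1 the ratio was 0.805 in SMCs and 0.481 in pericytes (0.750 without pericyte replicate 3 and 0.212 without pericyte replicate 4). For Hes1 it was 0.636 in SMCs and 0.726 in pericytes, where it turned to 1.15 without pericyte replicate 2 and was 0.475 without pericyte replicate 4. Notch1 gave 1.79 times in SMCs and 1.67 times in pericytes. Dll1 gave 1.89 and 1.62 times (3.27 without pericyte replicate 1 and 1.07 without pericyte replicate 2). Jag1, Notch4 and Heyl did not move alike in both groups. The ratio was 1.32 in SMCs and 0.700 in pericytes for Jag1 (0.892 without pericyte replicate 2 and 0.576 without pericyte replicate 1). For Notch4 it was 1.75 and 0.390 (1.35 without pericyte replicate 2). For Heyl it was 2.0 and 0.998 (0.606 without pericyte replicate 4 and 1.39 without pericyte replicate 3). Marker lists moved with these sets too. The median ratio in SMCs and pericytes was 2.97 and 1.31 for endothelial markers (above 1 for 15 and 10 of 15), 2.82 and 1.26 for mural markers (10 and 8 of 10) and 3.88 and 1.69 for smooth muscle markers (8 and 5 of 8). It was 0.354 and 0.294 for satellite cell markers (1 and 0 of 6), 0.701 and 0.492 for fibroblast markers (3 and 1 of 9), 0.704 and 0.751 for lymphocyte markers (2 and 1 of 10), and 1.31 and 2.04 for macrophage markers (6 and 6 of 7). The part of these cell types in the Notch ratios was not tested. The log2 difference between SMCs and pericytes was 0.65 within replicates 1 and 2 and 1.28 within replicates 3 and 4 for Notch3, 0.92 and 1.51 for Dll4, and 0.82 and 1.0 for Dll1. It was 0.75 and 1.40 for Jag1, 1.36 and 1.12 for Hes1, 0.97 and 1.78 for Hey1, and 0.66 and 1.70 for Heyl. For Notch1 it was -0.02 and 0.12, for Notch2 0.01 and -0.49 and for Notch4 -0.08 and 0.44, so these 3 receptors had opposite signs in the 2 sets of replicates. With these sets as a covariate, 6 members were called higher in SMCs, beside 14.3% of all genes in that fit, since Dll1 (limma q = 0.0324), Dll4 (limma q = 0.00820) and Hey1 (limma q = 0.0305) joined Jag1, Hes1 and Heyl, and Notch3 had a limma q of 0.0736. The sets were seen in the data and are given by no label.

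The rest of the pathway was read from a list of 50 other genes of Notch signalling, of which 7 were higher in SMCs, 10 were higher in pericytes and 33 were not called by limma. Of all genes tested 11.2% were called higher in SMCs and 10.6% in pericytes. Of the 40 pathway genes averaging 1 FPKM or more, 6 (15.0%) were higher in SMCs and 10 (25.0%) in pericytes, beside 19.5% and 19.7% of all genes at that level. The median log2 difference of the list was 0.06, with -0.02 over all genes.

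**Figure D5:**
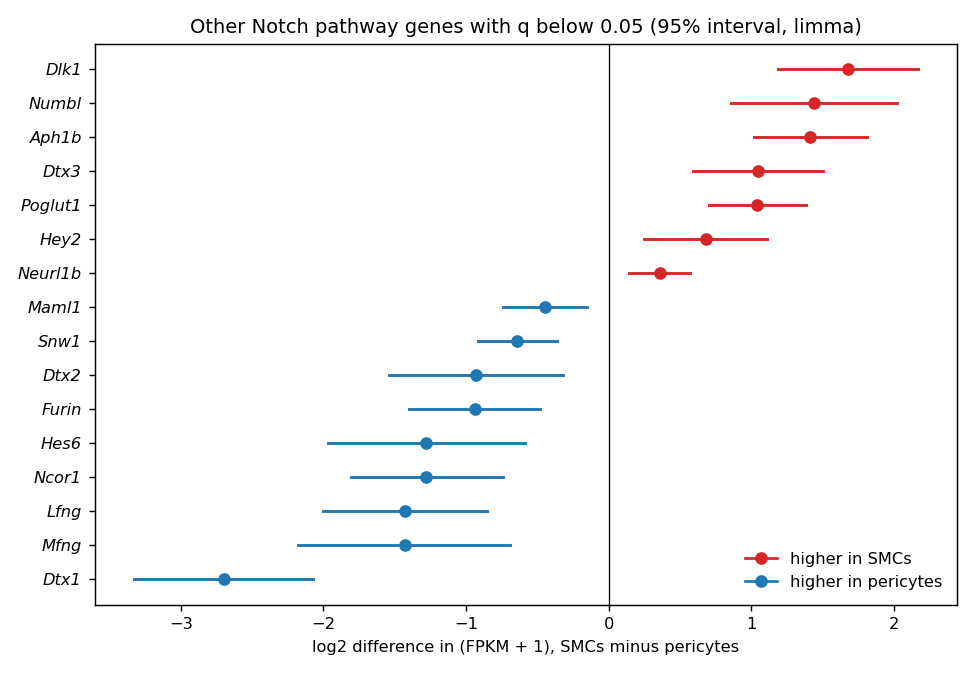
Difference between SMCs and pericytes in log2(FPKM + 1), with the 95% interval from limma, for Notch pathway genes with q below 0.05, among the 50 beside the members. The 7 genes in red are higher in SMCs, led by Dlk1 (1.68), and those in blue are higher in pericytes, led by Dtx1 (-2.70).

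Among 5 other ligands, 1 was called, beside 21.8% of all genes tested. Dlk1, a Delta-like protein without the domain by which Delta ligands bind Notch, had 1.22, 1.07, 1.62 and 2.29 FPKM in pericytes and 6.53, 4.97, 8.79 and 8.58 FPKM in SMCs. It was 4.65 times as high in SMCs, with a log2 difference of 1.68 (standard error 0.21, limma q = 0.00135). Jag2 had 0.316 to 0.843 FPKM in pericytes and 0.772 to 2.47 FPKM in SMCs (limma q = 0.115), and Dll3 was listed at 0 in every pericyte library and reached 0.0913 FPKM in SMCs. Dner had 0 to 0.153 FPKM in pericytes and 0.357 to 3.99 FPKM in SMCs (limma q = 0.0972). Every SMC library of Dner was above every pericyte library, as was so for 12.5% of all genes tested, and it was called with a pseudocount of 0.1. Dlk2 overlapped between the groups (limma q = 0.576).

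Among 5 enzymes that add sugars to the receptors, 2 were higher in pericytes and 1 was higher in SMCs. Of all genes averaging 1 FPKM or more, 19.7% and 19.5% were so called. Lfng and Mfng are Fringe enzymes, which change the response of Notch to Delta-like and Jagged ligands. Lfng had 4.94, 5.97, 10.1 and 9.65 FPKM in pericytes and 2.03, 1.39, 2.63 and 2.56 FPKM in SMCs, a log2 difference of -1.43 (standard error 0.24, limma q = 0.00565). Mfng had 41.2, 44.3, 43.3 and 29.5 FPKM in pericytes and 8.71, 9.65, 21.6 and 19.8 FPKM in SMCs, also with a log2 difference of -1.43 (limma q = 0.0165). Every pericyte library was above every SMC library for both genes, as was so for 12.1% of all genes tested and 21.4% of those averaging 1 FPKM or more. The third Fringe gene, Rfng, overlapped between the groups (1.11 to 9.61 FPKM in pericytes and 2.86 to 8.60 FPKM in SMCs, limma q = 0.749). Poglut1, which adds glucose to the EGF repeats of Notch, was 2.12 times as high in SMCs, where 4 libraries averaged 32.3 FPKM (SD 4.57), while the pericyte average was 15.2 FPKM (SD 2.45, n = 4; limma q = 0.00215).

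The proteases that process and cut the receptors were mostly not called (7 of 10), beside 21.8% of all genes tested that were called. Furin, which cleaves the receptor on its way to the surface, was 2.06 times as high in pericytes (log2 difference -0.94, limma q = 0.0131). Aph1b, a gamma-secretase subunit, was 3.44 times as high in SMCs (log2 difference 1.41, limma q = 0.00110), while its near-identical copy Aph1c had 2.88 to 6.45 FPKM in pericytes and 2.85 to 4.19 FPKM in SMCs (limma q = 0.369), and the split of reads between these copies is uncertain. Adam10, the sheddase of Notch, had 15.6 to 46.9 FPKM in pericytes and 18.3 to 39.7 FPKM in SMCs (limma q = 0.892).

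In the nucleus, Rbpj itself overlapped between the groups, at 8.53 to 21.7 FPKM in pericytes and 12.9 to 17.7 FPKM in SMCs (log2 difference -0.03, limma q = 0.965). Of the 10 genes of the nuclear complex 3 were higher in pericytes and 0 in SMCs, and at an unadjusted limma p below 0.05 these counts were 5 and 0, beside 15.6% and 16.2% of all genes tested. Ncor1, a corepressor, had 30.2, 23.4, 19.4 and 13.3 FPKM in pericytes and 8.38, 7.66, 8.77 and 7.17 FPKM in SMCs (log2 difference -1.28, limma q = 0.00663). Snw1, a coregulator that binds RBPJ, was 1.56 times as high in pericytes (limma q = 0.00807), and the coactivator gene Maml1 was 1.73 times as high (limma q = 0.0412). With the libraries scaled to a common sum, which moved the median log2 difference of genes averaging 1 FPKM or more from -0.05 to 0.15, the calls for Furin, Snw1, Maml1 and Dtx2 were lost (limma q from 0.0734 to 0.326). The call for Maml1 was lost without each library other than pericyte replicate 3 (limma q from 0.0768 to 0.105).

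Of 13 trafficking and ubiquitin genes, 3 were higher in SMCs and 2 in pericytes. Of all genes tested 11.2% and 10.6% were so called, and 19.5% and 19.7% of those averaging 1 FPKM or more. Dtx1, a Deltex ubiquitin ligase known as a Notch-responsive gene of lymphocytes, had 4.61, 6.02, 10.6 and 11.3 FPKM in pericytes and 0.520, 0.223, 0.437 and 0.181 FPKM in SMCs. It was 23.9 times as high in pericytes, with a log2 difference of -2.70 (standard error 0.27, limma q = 5.02e-04), and was the only one of the 50 genes past a log2 fold change of 2. Its relative Dtx2 was 1.93 times as high in pericytes (limma q = 0.0406), a call that was lost without each library other than SMC replicate 4 (limma q from 0.0533 to 0.103). Dtx3 went the other way, at 14.7, 11.2, 17.6 and 16.3 FPKM in pericytes and 28.9, 23.7, 36.6 and 39.4 FPKM in SMCs (log2 difference 1.05, limma q = 0.00822). Numbl, related to the Notch antagonist Numb, was 4.0 times as high in SMCs (log2 difference 1.44, limma q = 0.00578), and Numb had 11.8 to 24.2 FPKM in pericytes and 12.0 to 32.7 FPKM in SMCs (limma q = 0.684). Neurl1b, a ubiquitin ligase that acts on ligands, stayed under 1 FPKM in all libraries (log2 difference 0.36, limma q = 0.0295), and its call was lost without SMC replicates 1 or 4 or pericyte replicates 1, 3 or 4 (limma q from 0.0684 to 0.0785). Beside the pericyte values of Lfng, Mfng and Dtx1 stand the lymphocyte markers, with Cd3e at 119 to 166 FPKM in pericytes and 0.857 to 2.86 FPKM in SMCs, and their part in these values was not tested.

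Of 7 other Hes, Hey and Nrarp genes, 1 was higher in each group, beside 11.2% (SMCs) and 10.6% (pericytes) of all genes tested. Hey2, a close relative of Hey1, had 1.13, 2.13, 1.11 and 0.965 FPKM in pericytes and 1.93, 2.67, 2.93 and 3.35 FPKM in SMCs, where pericyte replicate 2 exceeded SMC replicate 1. Its log2 difference was 0.68 (standard error 0.18, limma q = 0.0351), and the call was lost with no filter (limma q = 0.0709), with an intensity trend (limma q = 0.0680) and without SMC replicates 2, 3 or 4 or pericyte replicates 1, 3 or 4 (limma q from 0.0786 to 0.0898). Hes6, which is known to oppose Hes1 rather than to follow Notch, had 53.7, 61.2, 43.1 and 40.4 FPKM in pericytes and 33.2, 21.4, 16.4 and 12.4 FPKM in SMCs. It was 2.38 times as high in pericytes (log2 difference -1.28, limma q = 0.0196), and lost its call without SMC replicate 3 or pericyte replicate 1 (limma q = 0.0516 and 0.0557). Nrarp, a feedback inhibitor induced by Notch, had 0.891 to 3.29 FPKM in pericytes and 1.84 to 3.87 FPKM in SMCs (limma q = 0.304).

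Among the called pathway genes, Hey2 and Lfng carry the RBPJ core letters before their start and are shown as examples. Poglut1, Dtx2 and 1 of the promoters of Ncor1 also carry these letters and are not shown. Hey2 lies at chr10:30562608-30562839 (minus strand, stopping at its annotated first exon) and Lfng lies at chr5:141083045-141083294 (plus strand), from the same RefSeq table placed on NCBI Build 37. Capitals mark the same letters as above.
Hey2: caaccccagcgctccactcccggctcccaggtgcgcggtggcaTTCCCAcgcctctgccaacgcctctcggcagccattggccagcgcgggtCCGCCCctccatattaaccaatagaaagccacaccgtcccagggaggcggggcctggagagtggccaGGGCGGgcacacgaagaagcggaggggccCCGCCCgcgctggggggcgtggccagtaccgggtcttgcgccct
Lfng: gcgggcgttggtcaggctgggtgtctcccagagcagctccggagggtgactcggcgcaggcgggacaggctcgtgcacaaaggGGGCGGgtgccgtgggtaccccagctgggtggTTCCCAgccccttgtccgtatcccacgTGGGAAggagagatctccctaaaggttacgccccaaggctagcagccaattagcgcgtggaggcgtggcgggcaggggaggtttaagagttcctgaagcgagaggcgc
Hey2 holds 1 RBPJ core and 3 GC boxes, and Lfng holds 2 RBPJ cores and 1 GC box. Hey2 was higher in SMCs and Lfng in pericytes. Of the 50 other pathway genes, 39 had an entry with 52 promoters in all, and 14 of these promoters hold the RBPJ core, beside 21.6% of all promoters.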

How the data were processed

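RNA of 4 pericyte and 4 SMC libraries was measured by bulk RNAseq after SMART-Seq amplification and Nextera XT library construction. After FastQC, the authors mapped the reads with TopHat and Bowtie2 (NCBI Build 37, Ensembl gene models). What they deposited is the FPKM of every gene, on a linear scale and unfiltered. A label calls the table raw counts, but its values are not whole numbers, and the unit follows the study's methods. The program that computed FPKM, and whether reads were assigned by strand, are not given in the sources used here. Notch1, Notch3, Notch4, Dll1 and Dll4 overlap other annotated genes on the opposite strand, so reads of these pairs may not be told apart.

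Here the test on log2(FPKM + 1) used limma 3.58.1 under R 4.3.3, with lmFit and eBayes on both groups and no covariate, and Benjamini-Hochberg adjustment over 27414 genes above 0 in at least 1 library; 10565 genes were listed at 0 in all 8. Calls needed q below 0.05. The fit was checked on simulated data with known changes. The study's methods call the 4 libraries of a group biological replicates, each combined from several sorts, so q values measure the spread between these pools. FPKM gave no read counts and no counting error.

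The members and lists were chosen with earlier results of these data known, and so were the sets of replicates 1 and 2 and of replicates 3 and 4. Named were all members, pathway genes with q below 0.05 (at most 10 in each direction by fold change), the 3 nearest genes of members with an SD above 1, and markers beside a result. Some of the genes that this rule names are not reported here, though the counts hold them. One marker, Adgre1, is listed under its older symbol, Emr1. Gene positions came from GENCODE version M1 (Ensembl 65), which holds 37195 of the 37979 identifiers. Alternatives were pseudocounts of 0.1 and 0.5, a filter at 1 FPKM in 4 libraries, no filter, TPM, median-ratio and quantile scaling, a replicate block, these sets as covariate, an intensity trend, and each library left out in turn. Figures were made with matplotlib 3.10.9 in Python 3.11.15.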

Additional observations from a re-analysis of the deposited data

Results flagged for a closer look

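Of the genes named, 1 had a library far from the other 3 of its group, by Dixon's ratio of the gap to the range of the 4 log2 values, among 52 groups looked at, where chance gives about 1 in 20. Aph1b in SMC replicate 4 was the highest of 4, at a log2 value of 3.17 (8.02 FPKM, against 6.36 to 6.52 FPKM in the others). None of the 10 receptors, ligands and targets had such a library.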

How the results depend on the processing

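The number of receptors, ligands and targets higher in SMCs was 3. It fell to 1 (Jag1) when genes at 0 everywhere were kept in the fit and its adjustment. It rose to 5 with the replicate block, of which 2 were among the 3. The share of all genes called in the block fit is not given here, so this rise cannot be set against all genes. With replicates 1 and 2 against 3 and 4 as covariate the number rose to 6, beside 14.3% of all genes in that fit. With a library left out it was 1 to 3, and it was 1 without SMC replicate 1, SMC replicate 3 or pericyte replicate 1. The replicate block called Jag1, Heyl, Hey1 (limma q = 0.0322), Dll4 (limma q = 0.0342) and Notch3 (limma q = 0.0403) and lost Hes1 (limma q = 0.0619), and of the pathway genes it lost Hey2 (limma q = 0.0688), Neurl1b, Mfng, Dtx2 and Maml1. The deviations of same-numbered libraries from their group means correlated at 0.0794 to 0.474 across 13612 genes, against 0.209 to 0.538 for the other number within replicates 1 and 2 or 3 and 4, and 5 of 8 libraries correlated best with their own number. These values do not settle whether the numbers link libraries. No label states such a link, and the libraries were not treated as pairs in the main fit. The count higher in pericytes was 0 in every fit. Pathway genes higher in pericytes numbered 10, but 6 with a pseudocount of 0.1, 5 with TPM scaling, 8 with the replicate block and 12 with replicates 1 and 2 against 3 and 4 as covariate, and 7 to 11 with a library left out. The share of all genes called higher in pericytes in these alternative fits is not given here, so these counts cannot be set against all genes. The cause was not tested. Differences near 0 changed sign with a library left out. That of Notch1 ranged from -0.08 to 0.30, below 0 without SMC replicates 3 or 4 or pericyte replicates 1 or 2, and that of Notch2 from -0.50 to 0.00, reached without pericyte replicate 3. Of the 6 nearest genes of Notch3 and Dll4 2 were shared after division by the SD. The pathway genes higher in SMCs, 7, ranged from 5 to 9.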
